A study of Zea mays with 24 samples.

Results

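Among 7494 maize leaf probe sets that carried no gene symbol, 127 (1.69%) read high in 2 of 4 inbred lines and low in the other 2. B73 was a high line in 101 of the 127, Mo17 and Wf9 each in 53, and W23 in 47. A probe set is a group of short oligonucleotide probes that together report 1 transcript sequence. Members were chosen from the deposited signals themselves. The line mean of each probe set was its mean signal over the arrays of a line, with exact zeros treated as missing and values under a background level of 16.7 raised to that level. A probe set was kept where the second highest line mean was at least 50 and at least 3 times the third. That ratio, the second over the third line mean, is called the ratio here. The differences between high and low lines chose the members, so they are given as a description and no test of them supports anything. Tested instead were the difference between the 2 high lines and that between the 2 low lines. The rule did not use these differences themselves, but it used 1 end of each, the second and the third line mean. The shares of members called are therefore a description.

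Inbred maize lines are close to homozygous, so each line carries largely 1 allele of each gene. Maize lines are known to differ widely in sequence and in gene content, and some sequences present in one line are lacking in another. On a short-oligonucleotide array a base difference under a probe can lower its hybridisation, and such an array reads abundance and sequence match together. A low signal here can therefore be less transcript or a poorer match, and these cannot be told apart. Nor can fewer cells of a type and less RNA per cell, since whole leaves were extracted. What the 127 transcripts encode is not stated here, since the table used to name probe sets gave them no symbol.

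All groups were untreated greenhouse plants of the inbred lines B73, Mo17, W23 and Wf9, and total RNA came from the third, the fourth and the fifth leaf. Each RNA was a pool from several plants, growth and extraction were done 3 times per line, and every RNA was hybridised to 2 arrays of the pilot maize GeneChip. This gave 24 arrays of 12 RNAs. A replicate value is the mean of the 2 arrays of an RNA.

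The arrays had been scaled alike, with a 2% trimmed mean of 250.15 to 250.24 and a median signal of 46.7 to 62.8. Leaf identity was visible in 10 of 12 probe sets for photosynthesis genes, whose line means lay between 614 and 11636, while the other 2 did not exceed 109. Both probe sets of the seed storage protein gene gz27 were at background in all lines, and the 2 root and 2 pollen probe sets did not exceed 89.0 and 72.3. The seed-listed vpp1, a proton pump of the vacuole, was bright in all lines, at 2499 to 2968. One array stood apart: over 2281 bright probe sets, the log2 differences between the 2 arrays of B73 replicate 3 had an SD of 0.70, against 0.08 to 0.20 in the other 11 RNAs. Array 1 of that RNA also held all 213 exact zeros of the table, 5 of them in members. Replicates 2 and 3 of W23 were unusually alike, with an SD of 0.16 that lay within the range of technical arrays, against 0.33 to 0.79 for the other replicate pairs of a line.

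All 6 possible pairs of high lines occurred. B73 and Wf9 were high in 37 members, B73 and Mo17 in 33, and B73 and W23 in 31. The 3 pairs without B73 held 10 members for Mo17 and W23, 10 for Mo17 and Wf9, and 6 for W23 and Wf9. Read as divisions of the lines, whichever side was high, 47 members set B73 and Wf9 against Mo17 and W23, 41 set B73 and W23 against Mo17 and Wf9, and 39 set B73 and Mo17 against W23 and Wf9. The second line mean was at least 1000 in 10 members and under 100 in 33. The median ratio was 4.73. Not all members were even splits: by the same limit of 3, 9 were also high in 1 line and 6 were also low in 1 line. In 27 members both low lines were at or below background on all their arrays, and their ratios are lower bounds. All 6 high-line replicates lay above all 6 low-line replicates in 114 of the 127. Over all 8346 probe sets that were not controls, 11.9% had such a gap below their 2 highest lines, and the limma F-test over the 4 lines called 30.5% of them and 121 members. These counts follow the choice of members, and nothing is read from them.

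**Figure D1:**
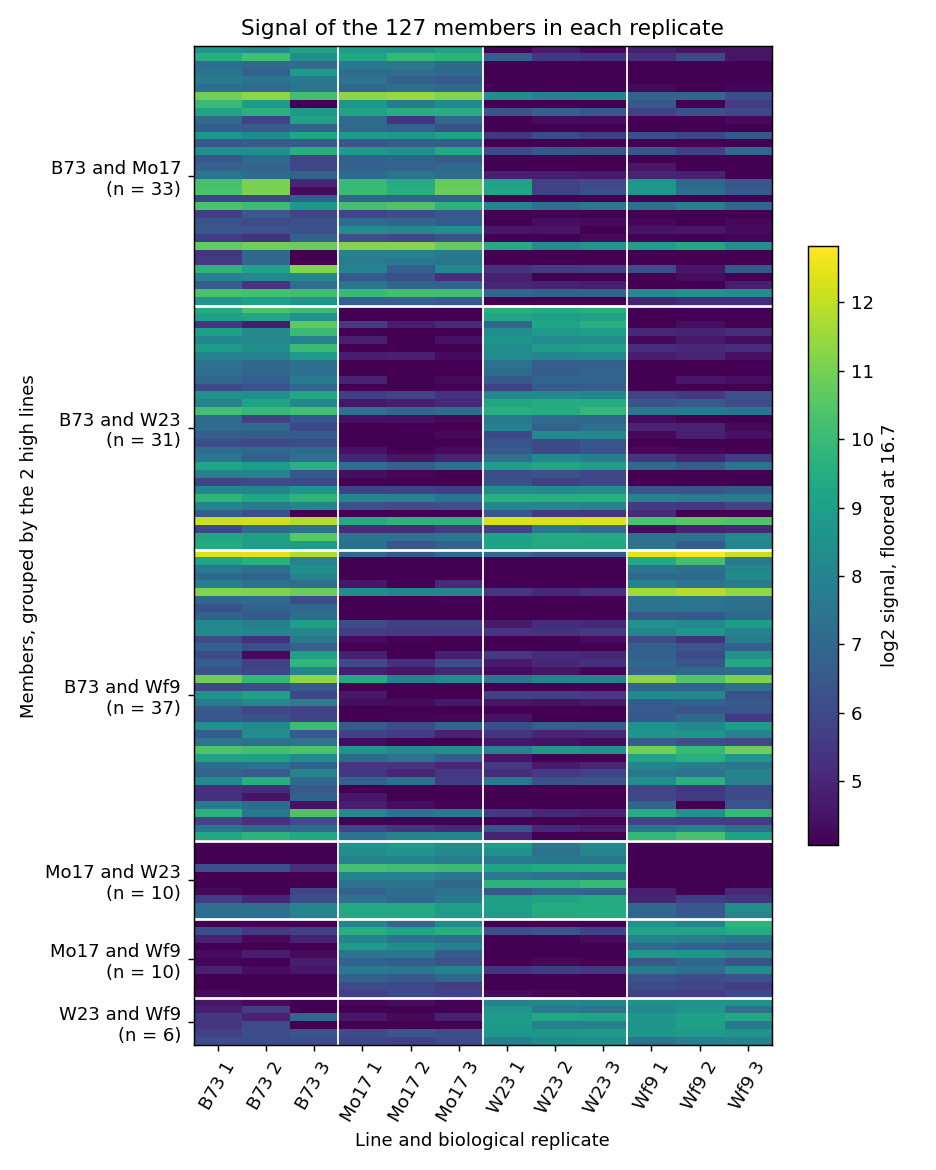
The 127 members (rows) in the 12 replicates (columns, 3 per line), coloured by log2 signal with values under 16.7 raised to it and grouped by the pair of high lines. The 3 blocks with B73 among the high lines hold 101 of the 127 rows.

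In 33 members B73 and Mo17 were high, with ratios from 3.12 to 17.0 and a median of 5.27. Zm3.16049.2.A1_at had the highest ratio of this pair. It read 405, 314 and 561 in the B73 replicates and 471, 446 and 576 in those of Mo17, against 18.7, 26.1 and 19.6 in W23 and 28.3, 22.9 and 23.9 in Wf9. Its 6 high replicates were all far above the 6 low ones, which lay just over the background level. In Zm1.13345.2.S1_at, with a ratio of 12.1, the B73 replicates spread widely, at 779, 1161 and 325. Its Mo17 replicates were 622, 959 and 848, those of W23 102, 44.2 and 40.9, and those of Wf9 39.2, 61.1 and 23.6. Despite that spread no low replicate reached a high one. The bright Zm3.8907.1.A1_at read 1944, 2534 and 1166 in B73, 2502, 2945 and 2270 in Mo17, 327, 223 and 252 in W23, and 119, 132 and 74.0 in Wf9. Here the low lines were still well above background and W23 was above Wf9 in every replicate. Zm3.13366.1.A1_at, with both low lines at background, was at least 8.67-fold lower there, and Zm3.8205.1.A1_at was the next brightest, with line means of 1847, 2137, 474 and 514 in B73, Mo17, W23 and Wf9.

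B73 and W23 were high in 31 members, with ratios from 3.04 to 43.6 and a median of 4.28. Zm3.6656.1.A1_at held the highest ratio of all 127. Its signals were 697, 1335 and 1084 in B73 and 750, 686 and 749 in W23, against 8.0, 4.0 and 3.75 in Mo17 and 2.0, 1.65 and 3.5 in Wf9. Both low lines were below background on every array, so the second line mean was at least 43.6-fold above them. A like pattern was seen in Zm3.8737.1.A1_at, at 527, 601 and 363 in B73 and 620, 518 and 567 in W23, with no replicate of Mo17 or Wf9 above 3.70. The difference there was at least 29.8-fold. The brightest member of the pair, Zm3.5716.1.A1_at, read 4341, 4719 and 3630 in B73, 706, 847 and 848 in Mo17, 5143, 5057 and 5208 in W23, and 1314, 1491 and 1348 in Wf9. It was plainly present in all lines, and its ratio was 3.06. Zm3.15878.1.A1_at was the next brightest, with line means of 1119 in B73 and 809 in W23 against 145 in Mo17 and 182 in Wf9.

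One high ratio of this pair rested on 1 array. Zm1Affx.863.1.A1_x_at read 43.1, 26.4 and 1627 in the B73 replicates, and the last value averaged 3176 on array 1 with 77.4 on array 2. Its W23 replicates were 121, 602 and 786, and those of Mo17 48.8, 26.4 and 35.2, so the B73 and Mo17 replicates overlapped. Without that array it was no longer a member.

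Most numerous were the 37 members high in B73 and Wf9, with ratios from 3.04 to 43.0 and a median of 4.31. The brightest was Zm3.16786.1.A1_at, at 5314, 5690 and 3503 in B73 and 5683, 7258 and 4418 in Wf9. Its Mo17 replicates were 128, 89.5 and 139 and those of W23 123, 91.6 and 92.1. The low lines were above background in every replicate, so its ratio of 43.0 is a measured value. It was listed at 0 on array 1 of B73 replicate 3, and the value of that replicate comes from the other array. Zm3.7397.1.A1_at fell to background in Mo17 and W23, where no replicate exceeded 11.1, and read 582, 794 and 245 in B73 and 653, 1215 and 208 in Wf9. Its second line mean was at least 32.4-fold above the low lines. Zm3.9407.1.A1_at had 3 separate levels, with 2310, 2216 and 1844 in B73, 3134, 3768 and 2714 in Wf9, 341, 270 and 267 in Mo17, and 43.4, 33.0 and 39.5 in W23. Only its W23 replicates were near background.

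Both Mo17 and W23 were high in 10 members, and their median ratio of 9.84 was the highest of the 6 pairs. In 5 of the 10 both low lines were at background on all arrays. Zm1.16191.1.S1_x_at read 378, 438 and 339 in Mo17 and 457, 197 and 296 in W23, with no B73 or Wf9 replicate above 2.80, which made it at least 18.9-fold lower in those lines. A further probe set of the same sequence, Zm1.16191.1.S1_at, was also a member, at least 16.1-fold lower in B73 and Wf9. Zm1Affx.165.1.A1_at read 1172, 1119 and 1075 in Mo17, 581, 681 and 702 in W23, 73, 72.9 and 37.9 in B73, and 3.45, 10 and 8.0 in Wf9. Its 4 lines did not overlap in any replicate. Zm1Affx.1019.1.A1_x_at was at background in B73 and Wf9, at least 11.6-fold lower there, and Zm3.3501.1.A1_at had the smallest ratio among the named members of the pair, 3.17.

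Mo17 and Wf9 were high in 10 members with ratios of 3.07 to 14.0, and none of the 10 carried the prefix Zm3. Zm1Affx.257.1.A1_at read 256, 138 and 308 in Mo17 and 361, 256 and 868 in Wf9, against 11.6, 12.9 and 11.2 in B73 and 16.5, 13.8 and 12.3 in W23. Replicates of the low lines stayed at or below background while those of Wf9 spread more than 3-fold. The ratio of 14.0, which belongs to this member, is therefore a lower bound. Zm1Affx.1042.1.A1_x_at was tighter, at 763, 598 and 797 in Mo17, 584, 585 and 697 in Wf9, 71.0, 45.5 and 54.3 in B73, and 70.2, 82.0 and 56.2 in W23. Zm1.5966.1.A1_at followed with a ratio of 7.63. The second line mean of Zm1.6182.1.S1_at, high in the same lines, was only 4.60 times the third.

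The 6 members high in W23 and Wf9 were the fewest. Zm1.12101.2.S1_at read 247, 276 and 258 in W23 and 353, 371 and 367 in Wf9, against 24.4, 19.9 and 17.5 in B73 and 19.2, 20.6 and 17.6 in Mo17. The 4 lines each kept close together, and both low lines lay just over background. Zm3.4207.1.S1_at read 426, 416 and 451 in W23, 416, 439 and 387 in Wf9, 54.1, 70.2 and 84.9 in B73, and 66.9, 86.3 and 72.2 in Mo17. Zm1.15894.1.A1_at and Zm1.15894.1.A1_x_at, 2 probe sets of 1 sequence, had ratios of 9.05 and 7.69, and Zm3.8748.1.A1_at had 7.93.

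**Figure D2:**
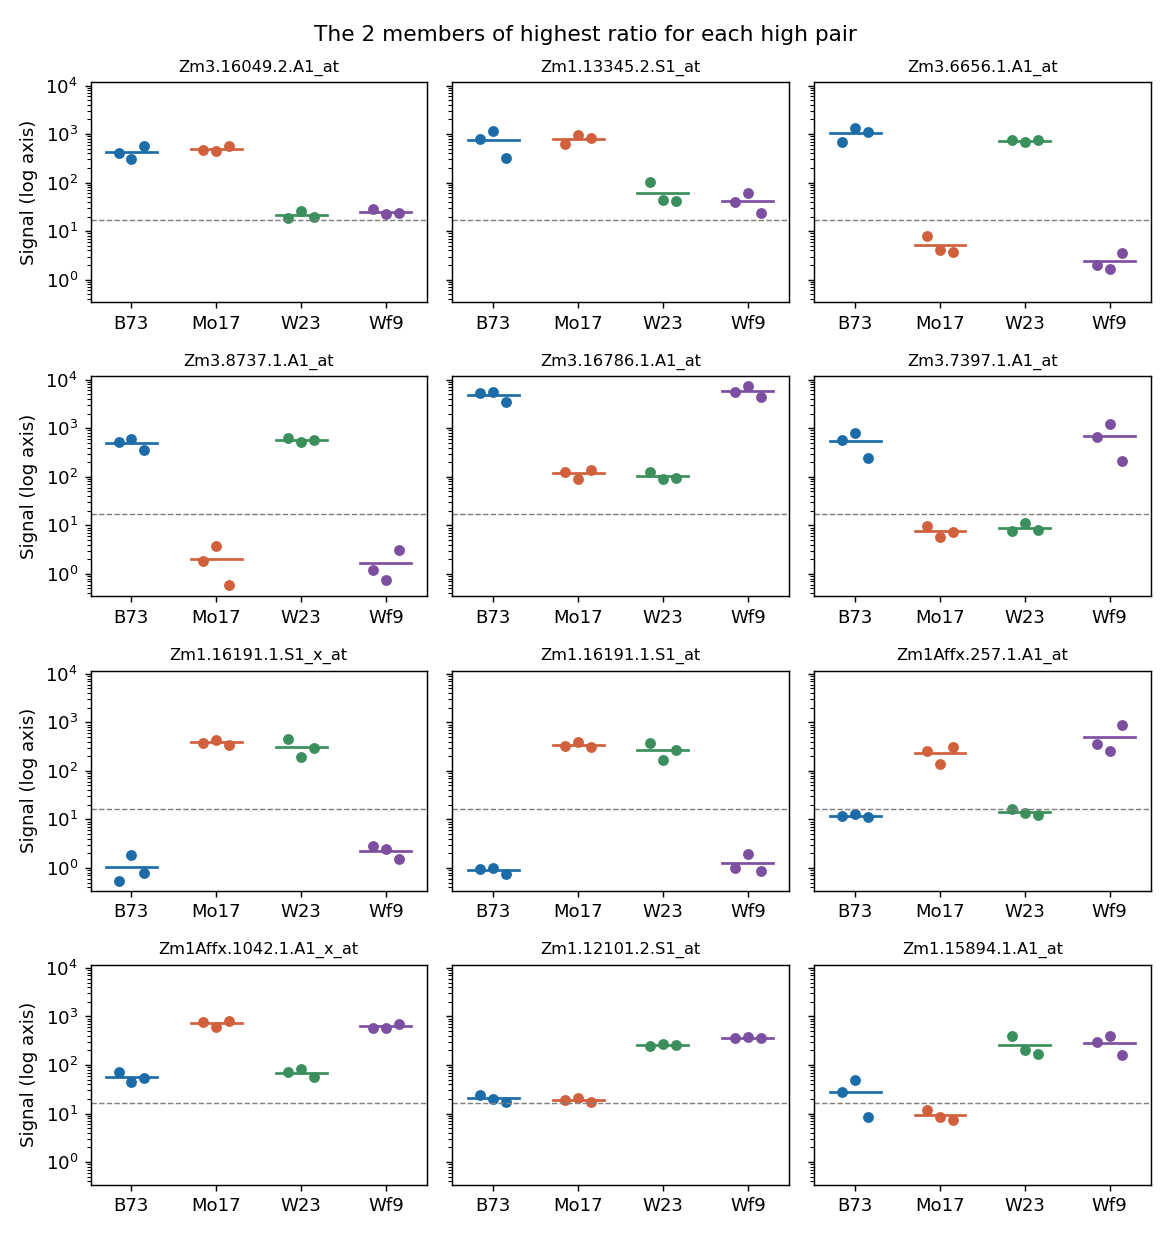
Signal (log axis) of the 2 members with the highest ratio for each pair of high lines (12 panels), with 1 point per replicate, a bar at the mean of the 3 replicates of a line and a dashed line at the background level of 16.7. In all 12 panels the 6 replicates of the high lines lie above the 6 of the low lines.

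Near the limit of the rule, the members with the smallest ratios were Zm3.1842.1.A1_at and Zm3.1069.2.A1_at, both at 3.04, and the unnamed probe sets just outside were Zm3.2382.1.A1_at at 2.98 and Zm3.1481.1.S1_at at 2.96. Of the 127 members, 93 (73.2%) met the rule with the same pair after each of the 12 replicates was left out in turn. Leaving out B73 replicate 2 or 3 lost 14 and 13 members, against 1 to 6 for any other replicate. Without the deviating B73 array, 118 members met the rule with the same pair.

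Replicates of high and low lines overlapped in 13 members, which were named after their values were seen, except Zm1Affx.863.1.A1_x_at, described above. Zm3.316.1.A1_at read 1290, 2201 and 20 in B73, 1028, 771 and 1811 in Mo17, 598, 54.5 and 73.2 in W23, and 423, 157 and 93.8 in Wf9. A single B73 replicate was below every replicate of the low lines, and W23 replicate 1 was well above the other W23 replicates. Its counterpart Zm1.316.1.A1_at had nearly the same line means, 1130, 1145, 226 and 206 in B73, Mo17, W23 and Wf9. Zm3.9297.1.A1_at and Zm3.1871.1.A1_at were both highest in replicate 3 of their high lines: the former read 66.3, 19.7 and 535 in B73 and 107, 67.9 and 379 in Wf9. For Zm3.1871.1.A1_at the values were 99.6, 55.6 and 901 in B73 and 129, 84.0 and 649 in Wf9. These 4 probe sets, Zm3.3384.1.A1_at and Zm3.10067.1.A1_at are the 6 members that the F-test did not call. The others with overlap were Zm1Affx.863.1.A1_x_at, Zm3.4324.1.A1_at, Zm3.15882.1.A1_at, Zm1.15882.1.A1_x_at, Zm3.1579.1.A1_at, Zm3.2111.1.A1_at and Zm3.10103.1.A1_at.

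The rule set no limit on the difference between the 2 high lines of a member, but it did set a lower limit on the lower of them. The limma fit, with adjustment over all 8346 probe sets for each pair of lines, called 21 of the 127 different between their 2 high lines, and the median absolute log2 difference was 0.30. By pair the calls were 7 of 33 for B73 and Mo17, where 14.7% of all tested probe sets were called, and 3 of 31 for B73 and W23, against 16% of all. For B73 and Wf9 they were 5 of 37, against 14.5% of all, and for Mo17 and W23 3 of 10, against 13.9%. For Mo17 and Wf9 2 of 10 were called, against 16.3%, and for W23 and Wf9 1 of 6, against 15.3%. The 6 member shares lay both above and below those of all probe sets, with few members in each pair. Among probe sets with both line means at 50 or more the shares called were 14.2% to 17.9%, close to those over all. A missed threshold does not show that the high lines were equal. The fitted difference, called or not, put B73 below the other high line in 25 of 33 members with Mo17, 17 of 31 with W23 and 29 of 37 with Wf9. Without B73 replicate 2 these counts were 21, 15 and 19, and without B73 replicate 3 they were 20, 21 and 30. Because the fit averages log2 values, uneven replicates can change the order of 2 lines. Zm3.1871.1.A1_at had line means of 352 in B73 and 287 in Wf9, but a fitted difference of -0.14. How often B73 lay below these lines over all probe sets is not given here, so the counts are only a description. With the replicate number as a block in the fit, 7 of 37 members were called between B73 and Wf9 and 4 of 31 between B73 and W23, and the other pairs had the same counts. The shares of all probe sets called with the block are not given here, so no change particular to the members is read from this. That block may not match all W23 replicates, as described with the processing.

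The member with the widest gap between its high lines was Zm1Affx.1201.1.A1_s_at, at 161, 173 and 126 in Mo17 and 842, 819 and 1004 in W23, against no more than 4.55 in B73 and 13.8 in Wf9. The Mo17 minus W23 log2 difference was -2.42 ± 0.17 (SE, adjusted p = 9.97e-07). Zm3.8789.1.A1_at, high in the same lines, was also lower in Mo17, at 162, 132 and 208 against 525, 577 and 681, a log2 difference of -1.75 ± 0.24 (SE, adjusted p = 0.000324). In each of these members W23 stood above Mo17 in every replicate.

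Between B73 and Mo17 the largest called difference was that of Zm3.4274.1.A1_at, 2.23 ± 0.48 (SE, adjusted p = 0.00813), a member named after its values were seen, with 876, 549 and 2354 in B73 and 254, 106 and 284 in Mo17. Zm3.14497.1.A1_at read 400, 527 and 375 in B73 and 107, 112 and 96.9 in Mo17, a log2 difference of 1.87 ± 0.16 (SE, adjusted p = 9.38e-06). Zm1.3591.2.A1_at ran the other way, at 88.5, 82.8 and 76.6 in B73 and 346, 286 and 342 in Mo17, a difference of -1.78 ± 0.16 (SE, adjusted p = 9.95e-06). It was listed at 0 on the deviating B73 array. B73 was the higher line in 3 of the 7 called members and Mo17 in 4. Counting all members, called or not, Mo17 had the higher fitted level in 25 of 33, and in 20 of 33 without B73 replicate 3.

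Called differences of the other pairs were as follows, on the log2 scale. B73 stood above W23 in Zm3.15135.1.A1_at, by 0.70 ± 0.16 (SE, adjusted p = 0.0101), and in Zm3.10088.1.A1_at, by 1.21 ± 0.29 (SE, adjusted p = 0.0137). Against Wf9, B73 was higher in Zm1Affx.1262.1.S1_at, by 1.18 ± 0.16 (SE, adjusted p = 0.000323), and in Zm3.9364.1.A1_at, by 0.96 ± 0.17 (SE, adjusted p = 0.00196). Mo17 was higher than Wf9 in Zm1.13026.2.A1_a_at and lower in Zm1.13187.1.A1_at, with log2 differences of 1.42 ± 0.22 and -1.28 ± 0.23 (SE, adjusted p = 0.00082 and 0.00218). In Zm1.12101.2.S1_at the W23 minus Wf9 difference was -0.46 ± 0.14 (SE, adjusted p = 0.0438), and 14 of 22 alternative settings ended that call. For Zm1Affx.165.1.A1_at Mo17 exceeded W23 by 0.77 ± 0.21 (SE, adjusted p = 0.026), a call that 8 of 22 alternatives ended. The call in Zm3.9407.1.A1_at, B73 minus Wf9 -0.60 ± 0.17 (SE, adjusted p = 0.0357), was lost in 10 of 22. For Zm3.15135.1.A1_at and Zm3.10088.1.A1_at 2 and 3 of the 22 alternatives ended the call. The other 7 called members, named after their values were seen, were Zm3.15882.1.A1_at, Zm1.15882.1.A1_x_at and Zm3.11844.1.A1_at, lower in B73 than in Mo17 by log2 differences of -2.05, -1.98 and -0.60, Zm3.2784.1.A1_a_at, higher in B73 by 1.85, Zm3.10557.1.A1_at, B73 minus W23 -0.96, and Zm3.9703.1.A1_at and Zm3.9879.1.A1_at, B73 minus Wf9 -0.75 and -0.57. Of these, Zm3.9879.1.A1_at lost its call in 12 of 22 alternatives, Zm1.15882.1.A1_x_at and Zm3.10557.1.A1_at in 6 each, Zm3.11844.1.A1_at in 4, and Zm3.15882.1.A1_at and Zm3.9703.1.A1_at in 1 each.

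**Figure D3:**
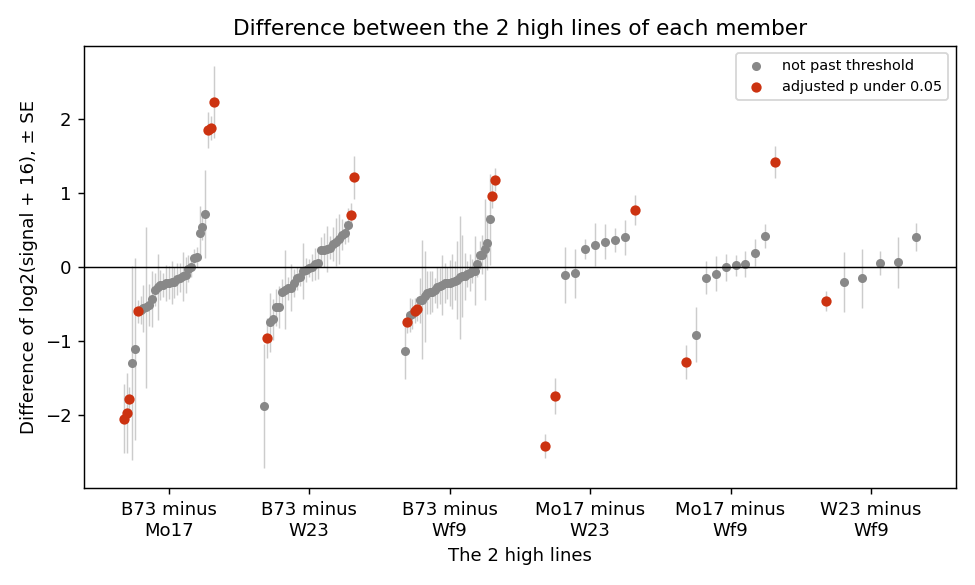
Log2 difference between the 2 high lines of each of the 127 members (vertical axis, first named line minus second, ± SE), sorted within each pair of high lines (horizontal axis), with red points for the 21 members that limma called and gray points for the others. Called members lie on both sides of 0.

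Within the low pair 12 of 127 members were called: 4 of the 33 low in W23 and Wf9, 3 of the 31 low in Mo17 and Wf9, 4 of the 37 low in Mo17 and W23, and 1 of the 10 low in B73 and Wf9. The shares of all probe sets called for those pairs were 15.3%, 16.3%, 13.9% and 14.5%, and each member count was a smaller share of its members. The rule put an upper limit on both low lines. Low lines at background also allow little difference, which holds for the 27 members counted above. Smaller shares can thus follow from the choice of members, and nothing is read from them. In Zm3.1842.1.A1_at Mo17 read 170, 257 and 268 and W23 30.6, 15.8 and 15.2, a log2 difference of 2.77 ± 0.29 (SE, adjusted p = 3.52e-05). Its W23 replicates 2 and 3 were below the background level, so the size of that difference is uncertain. This probe set was no longer a member without the deviating B73 array or with medians over arrays. Mo17 was likewise above W23 in Zm3.9407.1.A1_at, by 2.48 ± 0.17 (SE, adjusted p = 9.97e-07). B73 exceeded Wf9 in Zm1Affx.165.1.A1_at (adjusted p = 0.000128), at least 3.67-fold, since all Wf9 replicates were below the background level. Zm1.5005.1.A1_at was low in W23, at 124, 115 and 115, and higher in Wf9, at 314, 366 and 354, a difference of -1.42 ± 0.13 (SE, adjusted p = 1.39e-05). Zm3.8907.1.A1_at and Zm3.5716.1.A1_at, shown above, differed between their low lines by 1.21 ± 0.28 (W23 minus Wf9, adjusted p = 0.0116) and -0.78 ± 0.15 (Mo17 minus Wf9, adjusted p = 0.00336). The other 6 called members, Zm1.12968.1.S1_at, Zm3.10103.1.A1_at, Zm1Affx.252.1.A1_at, Zm3.8620.2.A1_x_at, Zm3.14497.1.A1_at and Zm3.10557.1.A1_at, had log2 differences from -1.15 to 2.19. Both low lines of Zm1Affx.252.1.A1_at were at background in all replicates, so its difference is not one between measured levels, and in Zm3.14497.1.A1_at Wf9 was at least 2.02-fold above W23, which was at background. With the replicate block 1 further member low in Mo17 and Wf9 and 1 low in B73 and Mo17 were called. The shares of all probe sets called with the block are not given here.

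The share of members with B73 high differed with the prefix of the probe set name. The array names its probe sets with the prefixes Zm3, Zm1 and Zm1Affx, whose meaning is not given in the sources used here. B73 was a high line in 82 of the 86 members with Zm3 (95.3%), in 11 of 22 with Zm1 (50%) and in 8 of 19 with Zm1Affx (42.1%). Members themselves were about as frequent under each prefix among unnamed probe sets with a second line mean of at least 50: 3.23% of 2662 for Zm3, 2.71% of 811 for Zm1 and 3.97% of 478 for Zm1Affx. In those same bright probe sets, members or not, B73 was among the 2 highest lines in 51.4%, 33.5% and 31.4%. B73 was thus high more often in members than in bright probe sets under all 3 prefixes, by the largest margin in Zm3. For Zm1 and Zm1Affx together the margin was small under some settings. Their members' share was 46.3%, but 36% with a floor of 50 and 37.0% with a ratio of 4, against 32.7% in bright probe sets. Since the rule used these line means, the shares are a description with no test.

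The high share of B73 among Zm3 members was also seen when repeated sequences or single replicates were left out. With each cluster number counted once, B73 was high in 75 of 79 clusters with Zm3 and in 17 of 35 with the other prefixes. Among the 93 members that met the rule in all 12 leave-one-out rounds, it was high in 63 of 65 with Zm3 and 10 of 28 with the others. Over names with the plain ending _at alone, the counts were 70 of 74 and 14 of 30. Leaving out any 1 replicate kept the Zm3 share between 92.3% and 95.4%.

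Unnamed probe sets split 1 line against 3 showed the same lean, but they were chosen from the same line means and are no separate evidence. Of those high in 1 line, by the same limits, the line was B73 in 53 of 68 with Zm3 and in 9 of 49 with the other prefixes. Of those low in 1 line, it was B73 in 3 of 123 with Zm3 and in 9 of 53 with the others. Over all bright unnamed probe sets the median log2 deviation of B73 from the mean of the 4 lines was only 0.03 for Zm3, with -0.11 for Zm1 and -0.08 for Zm1Affx. The 12 named probe sets that met the same limits, of 852, had B73 high in 5 of 7 with Zm3 and 2 of 5 with Zm1.

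**Figure D4:**
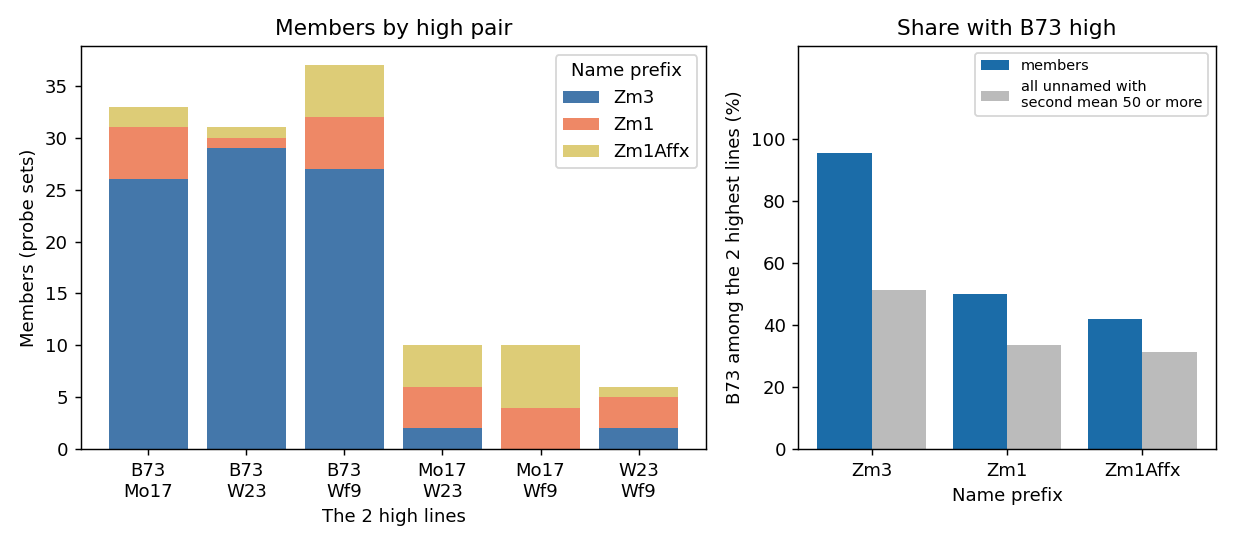
Left, the number of members (bars stacked by prefix of the probe set name) for each pair of high lines. Right, the percentage with B73 among the 2 highest lines, for members (blue) and for all unnamed probe sets with a second line mean of at least 50 (gray). Of the 86 members with Zm3, 82 fall in the 3 pairs that hold B73.

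In other parts of the name the members resembled the bright unnamed probe sets. The orientation letter was A in 112 members (88.2%), against 84.2% of bright and 72.4% of all unnamed probe sets. The plain ending _at was carried by 104 (81.9%), against 80.5% of the bright, and the ending _x_at, which marks probes that may also hybridise to other sequences, by 15 (11.8%), against 10%.

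The 127 members belonged to 114 cluster numbers, and 68 members were the only probe set of theirs on the array. The number was shared between Zm1 and Zm3 names of the same gene: of 96 numbers with named probe sets under both, 93 shared a gene symbol. In 12 clusters 2 or more members occurred, 25 members in all, and in 11 of them all members had the same high pair. Of the 65 probe sets in members' clusters that were not members, 18 were at background in all lines and 18 had the same 2 highest lines. The other 29 had other lines highest or only 1 line mean above background.

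Of the probe sets outside the members, 14 reported the same sequence in the same orientation as a member, and 11 of them had the same 2 highest lines. Their ratios were under 3, as they had to be, since an unnamed bright probe set with a higher ratio is itself a member. Of 18 for the same sequence in the opposite orientation, 11 were at background in all lines and 1 had the same pair. No pair was counted for Zm1.3591.2.S1_at, Zm1Affx.165.1.S1_at and Zm1Affx.257.1.S1_at, in which only 1 line mean was above background. For the other sequences of a cluster the counts were 6 with the same pair of 33, with 7 at background. All were read on the same arrays as the members and are no separate evidence.

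The 6 clusters described next were chosen after their values were seen, and their values are line means in the order B73, Mo17, W23 and Wf9. In the first cluster the member Zm3.14411.2.A1_at read 234, 12.1, 12.9 and 202, while Zm3.14411.2.A1_a_at of the same sequence read 527, 751, 633 and 525. One probe set thus split the lines and the other was bright in all 4. Zm3.14411.2.A1_x_at lay between, at 355, 159, 148 and 280. The names of these probe sets differ only in the ending, and whether they read the same transcripts was not tested. A further sequence of the cluster, Zm3.14411.1.A1_at, was also bright in all lines, at 236, 287, 302 and 320. In the next cluster, the member Zm3.8620.2.A1_at read 329, 25.2, 299 and 26.7, and Zm3.8620.2.A1_a_at read 295, 158, 292 and 295. Only Mo17 was lower in the latter.

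A further cluster held 796, 225, 780 and 227 as the line means of the member Zm3.14916.3.A1_at and 543, 347, 295 and 327 in Zm3.14916.3.A1_a_at. The member Zm3.1069.2.A1_at read 550, 116, 622 and 181, and Zm1.1069.1.A1_at read 573, 414, 649 and 604. Signal for that cluster was thus present in the lines in which the member was low. In a single cluster the members had different pairs: Zm3.16049.2.A1_at was high in B73 and Mo17, as given above, and Zm3.16049.1.A1_a_at in B73 and W23, at 636, 140, 526 and 137. Opposite patterns met in the last of the 6. Zm3.9879.1.A1_at read 108, 6.0, 3.43 and 163, and Zm3.9879.2.S1_at, a further sequence of the cluster with the other orientation letter, read 90.2, 239, 238 and 90.6.

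**Figure D5:**
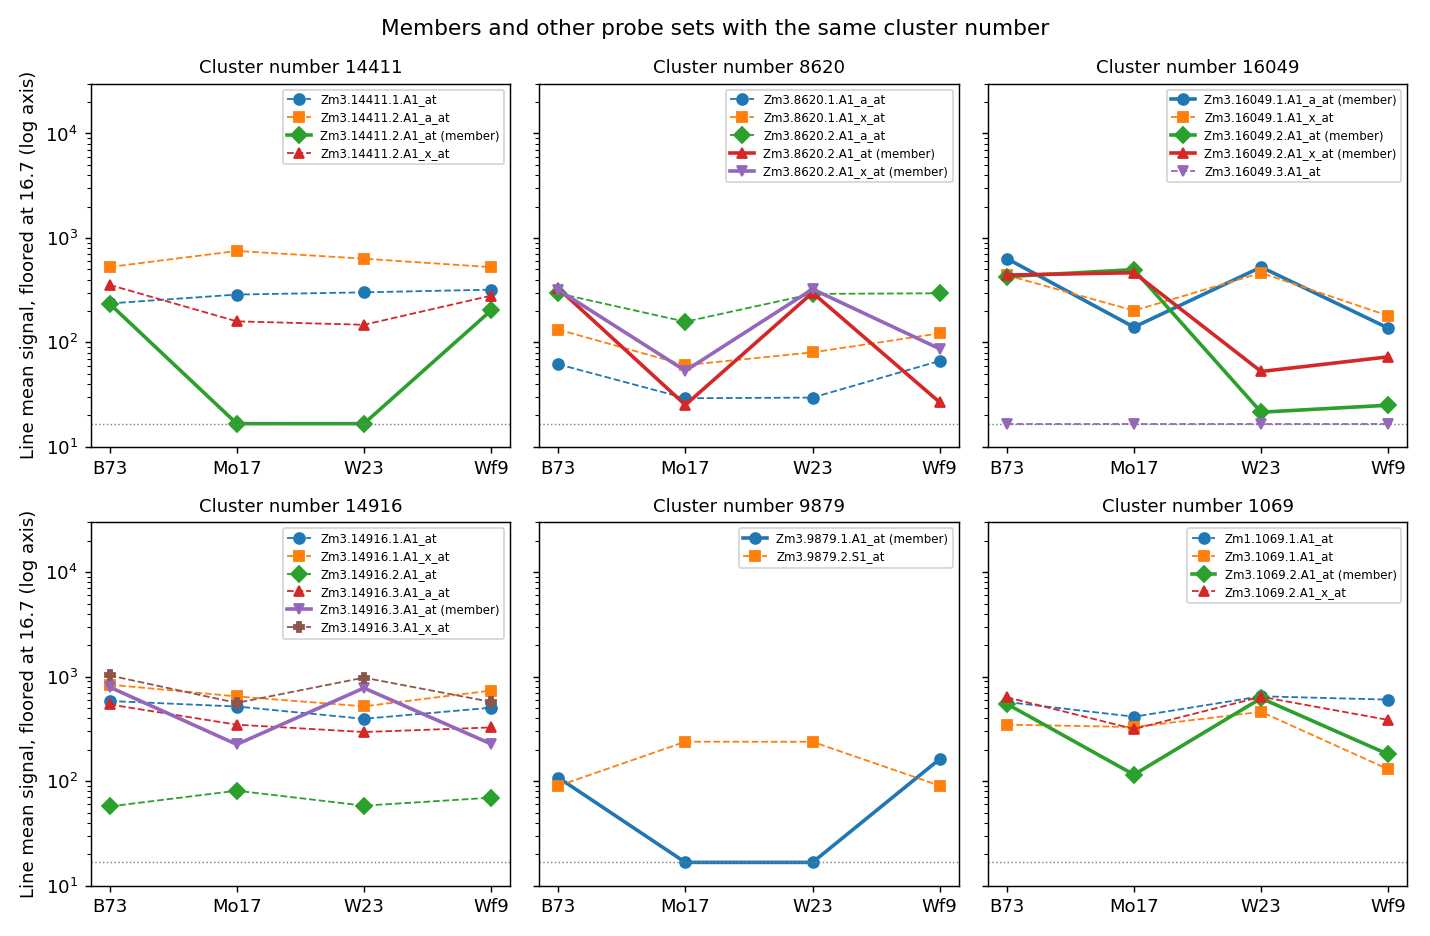
Line means (log axis, values under 16.7 raised to it) of all probe sets in 6 clusters, with thick lines for members and dashed lines for the others. In the clusters of Zm3.14411.2.A1_at and Zm3.8620.2.A1_at a probe set named for the same sequence, but with the ending _a_at, stays bright in lines where the member is low. Whether it reads the same transcripts as the member was not tested.

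Among the probe sets that shared a cluster number with a member, only 1 outside the members met the same ratio with the same pair. Zm1.559.1.A1_at carried the symbol LOC542634 and read 223, 105, 16.9 and 12.1 in B73, Mo17, W23 and Wf9. The member Zm3.559.1.A1_at, with the same cluster number and no symbol, read 246, 107, 17.0 and 16.4. The line means of the 2 were close in every line, and B73 was uneven in the member, at 135, 56.4 and 548 in its replicates. Both prefixes also met where the member Zm1.5005.1.A1_at read 1190, 1096, 118 and 345 and Zm3.5005.1.A1_at read 900, 1035, 209 and 370, with the same pair highest and a ratio of 2.43. Zm3.1567.1.A1_at had a ratio of 4.52 and Zm1.1567.1.S1_at one of 2.81, again with the same 2 lines highest.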

How the data were processed

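The authors deposited 1 table of probe set intensities (linear signal, 8475 probe sets, 24 arrays), made with MAS5 in GCOS per the submitters' processing notes. Neither software versions nor the scaling target are given in the sources used here. MAS5 gives 1 signal for all probes of a set, and scaling to a common mean hides any difference in total RNA. Exact zeros were treated as missing. The background level of 16.7 was the 99th percentile of 44 unspiked control probe sets. For tests each array was rescaled to a common 2% trimmed mean, log2(signal + 16) was taken, which understates differences of dim probe sets, and the values of both technical arrays were averaged for each RNA. The 12 RNAs, 3 per line, were fitted with limma 3.58.1 in R 4.3.3 (lmFit, eBayes with a mean-variance trend, line as the only term), with Benjamini-Hochberg adjustment over 8346 probe sets for each of 6 contrasts and a threshold of 0.05. Replicate numbers are shared across lines by the labels, which do not say that a number marks a shared growth round. Of 18 correlations between same-numbered RNAs of different lines, as deviations from the line means, 15 exceeded 0.1, against 7 of 36 for other numbers. All 3 did so for B73 with Mo17, B73 with Wf9 and Mo17 with Wf9, so same-numbered RNAs of these lines varied alike. W23 replicate 2 gave -0.28 to -0.50 with the RNAs of its number and 0.29 to 0.60 with replicate 3 of the other lines. W23 replicate 1 gave 0.33 to 0.45 with their replicate 2, and 0.24 to 0.26 with the RNAs of its own number. For W23 replicate 3 the values with the RNAs of its number were 0.28 to 0.37. The replicate block may therefore not match all W23 replicates. The script was tested on simulated data. The labels call the 3 RNAs of a line biological replications, and p-values measure the spread among them. The number of arrays limits the precision.

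Members and lists were chosen with earlier results of these data known. Named per pair of high lines were up to 3 members with the highest ratio, up to 2 further members with the highest second line mean and up to 2 with the smallest p among those called within the high pair; also up to 4 members whose sequence had another probe set, and the 2 nearest on each side of the ratio of 3. Other names were chosen after their values were seen. Gene symbols came from the platform's probe table. Alternatives were other floors, minimums and ratios, medians, quantile normalization, other pseudocounts, 2 lines fitted alone, array weights, a replicate block, and leaving out replicates or the deviating array.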

Additional observations from a re-analysis of the deposited data

How the results depend on the processing

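The number of members, 127, was 71 with a floor of 50, 257 with a ratio of 2 and 83 with a ratio of 4. It ranged from 120 (without B73 replicate 2) to 133 (without B73 replicate 1) on leaving out 1 replicate, and was 125 without the deviating B73 array and 121 with medians over arrays. The percentage of Zm3 members with B73 high was 86.4 with a ratio of 2, and 92.3 to 95.4 on leaving out 1 replicate. For Zm1 and Zm1Affx together it was 46.3 and ranged from 42.1 to 51.2 in the same way. With a floor of 50 it was 36, and with a ratio of 4 it was 37.0. Of 21 calls within the high pair, fitting the 2 lines alone left 12 and array weights, whose estimation stopped before its tolerance, gave 47; leaving out 1 replicate gave 15 (without Mo17 replicate 2) to 25 (without B73 replicate 3). The 12 calls within the low pair became 19 with a pseudocount of 1, 7 with 64, 21 with the 2 lines alone and 36 with array weights, and 9 (without W23 replicate 1) to 18 (without B73 replicate 3) on leaving out 1 replicate. Averaging the unusually alike W23 replicates 2 and 3 into 1, an alternative chosen after seeing the data, gave 16 and 9 calls. Leaving out the deviating array gave 23 and 15. With the replicate number as a block the calls were 24 and 14, and they held all 21 and all 12 of the fit without it. How many of all probe sets each alternative called is not given here. These counts therefore do not show a change particular to the members. No called difference within the high pair reversed under the 22 alternatives run for each of the 21 members. Signal over background limits the dim low lines, whose ratios are bounds.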
